A study of Drosophila melanogaster with 6 samples.

Results

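The 10 genes described here encode the pore-forming subunits of voltage-gated potassium and sodium channels and their close relatives in Drosophila melanogaster: Sh, Shab, Shal, Shaw, eag, sei, slo, Ih, para and NaCP60E. They were chosen by symbol, matched to FlyBase gene identifiers, and all 10 were found among the 14150 genes of the count table. Transcripts with a poly(A) tail were sequenced from the brains of female larvae at the late L3 stage, raised at 29 °C and taken 96 h after eggs were laid. The CIN group (CIN for chromosomal instability, as in the series title) had the genotype w; worniu-gal4, UAS-bub3-i. The ctrl group had the genotype w; worniu-gal4, UAS-gfp-i. Both thus carried the same driver, active in neuroblasts (the stem cells that make the brain's neurons and glia), and differed in the RNAi transgene, against Bub3 of the spindle assembly checkpoint or against gfp, which flies lack. Each group held 3 libraries, 1 in each of batches 4, 5 and 6 from different days, and each library pooled 3 brains.

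Voltage-gated channels set how neurons fire. Sodium channels open first when the membrane depolarizes and carry the rising phase of the action potential, and potassium channels open after them and return the membrane to rest. The Shaker family was first cloned in flies from a mutant that shakes its legs under ether, and its relatives each give a potassium current of a different speed and voltage range. These channels serve mainly differentiated neurons, and several are used by muscle too, while the knockdown was driven in neuroblasts. In whole brains, fewer cells of a type and less RNA per cell cannot be told apart.

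The libraries held 24668180 to 26292208 counts, and 10074 genes, all 10 channel genes among them, passed the expression filter. Bub3 measured 80.2, 96.5 and 91.5 CPM (counts scaled per 1000000 of the TMM-scaled library size) in CIN 4, 5 and 6, against 149, 123 and 144 CPM in ctrl 4, 5 and 6. All CIN libraries lay below all ctrl libraries, and the log2 fold change, -0.63 ± 0.13 (SE), was called by DESeq2 (adjusted p = 0.00364) but not by edgeR (quasi-likelihood F test, Benjamini-Hochberg adjusted p = 0.333). The sum of 7 ring gland markers was 27.9 CPM in CIN 5, of which Akh gave 20.55 CPM, against 34.3 CPM in ctrl 4, of which Akh gave 30.7 CPM, and it was 1167 to 3699 CPM in the other 4 libraries. The series describes all larvae as female, and lncRNA:roX2, an RNA of male dosage compensation, had 243 counts in CIN 5 and 0 to 6 in the others. Neuron identity was plain in every library: the 15 neuron markers, none of which was at 0, summed to 3690, 4754 and 4992 CPM in CIN 4, 5 and 6, against 4346, 4688 and 5173 CPM in ctrl 4, 5 and 6.

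Levels were first compared between the channel genes, per length, as CPM per kb of the union of annotated exons. Sh led in the ctrl brains with 25.8 ± 1.94 CPM per kb (SD, n = 3), followed by para with 21.6 ± 2.36 and Ih with 17.9 ± 4.14. The ranges of Sh and para over the 3 ctrl libraries overlapped, as did those of para and Ih. Shal came next with 12.8 ± 1.82 CPM per kb, beside a median of 12.9 over 10016 tested genes with an annotated length. Then came sei with 10.5 ± 0.925, Shaw with 8.98 ± 0.768, slo with 7.88 ± 1.12 and Shab with 7.27 ± 1.27 CPM per kb. Each of these overlapped its neighbour in the order, from Shal down to Shab. NaCP60E, with 5.21 ± 0.0825, and eag, with 3.06 ± 0.471 CPM per kb, closed the order, and neither overlapped the gene above it. Placed among the tested genes, Sh lay above 70.8% of them, para above 65.7%, Ih above 59.9% and eag above 22.9%. The order was tied to the choice of length. Per kb of the longest transcript, Sh was at 48.3 CPM per kb in ctrl, and Ih, at 25.5, moved above para, at 22.65. On that length Shab, at 10.9 CPM per kb, moved above sei, Shaw and slo, and 4 of the 10 genes kept their place.

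**Figure D1:**
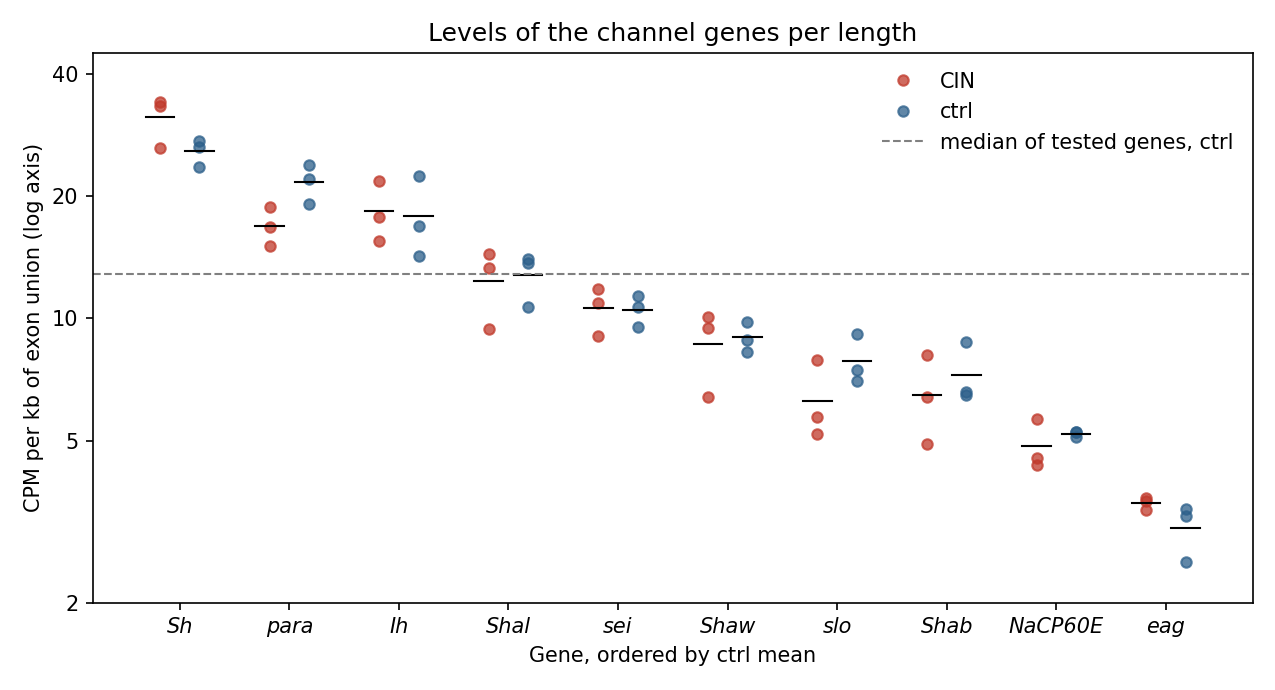
Each point is 1 library, in CPM per kb of exon union on a log axis, with CIN left of ctrl for each gene, black bars at the mean of 3 libraries and the median of tested genes as a dashed line. Sh, para and Ih lie above the median of 12.9 CPM per kb in all 6 libraries, and eag is the lowest gene in both groups, with means of 3.52 CPM per kb in CIN and 3.06 CPM per kb in ctrl.

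The comparison of CIN with ctrl asked whether channel transcripts of the whole brain differ when Bub3 is knocked down in neuroblasts. None of the 10 channel genes was called by edgeR (quasi-likelihood F test, Benjamini-Hochberg adjusted p under 0.05 over all tested genes), where 0.0993% of tested genes were called. The lowest adjusted p among them was 0.603, for para. DESeq2 called none either, where it called 1.07% of the genes it gave an adjusted p. At an unadjusted p under 0.05 edgeR held 1 of the 10, para, where 7.89% of tested genes were held. The 3 batch differences shared a sign for 1 of the 10, again para, and for 36.0% of tested genes. The fitted log2 fold changes ran from -0.36 to 0.28, with 4 positive and 6 negative and a median of -0.05, beside a median of 0.01 over all tested genes. The 95% intervals of all 10 excluded a 2-fold difference in either direction, without correction for the number of genes, and those of 6 also excluded a 1.5-fold one.

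**Figure D2:**
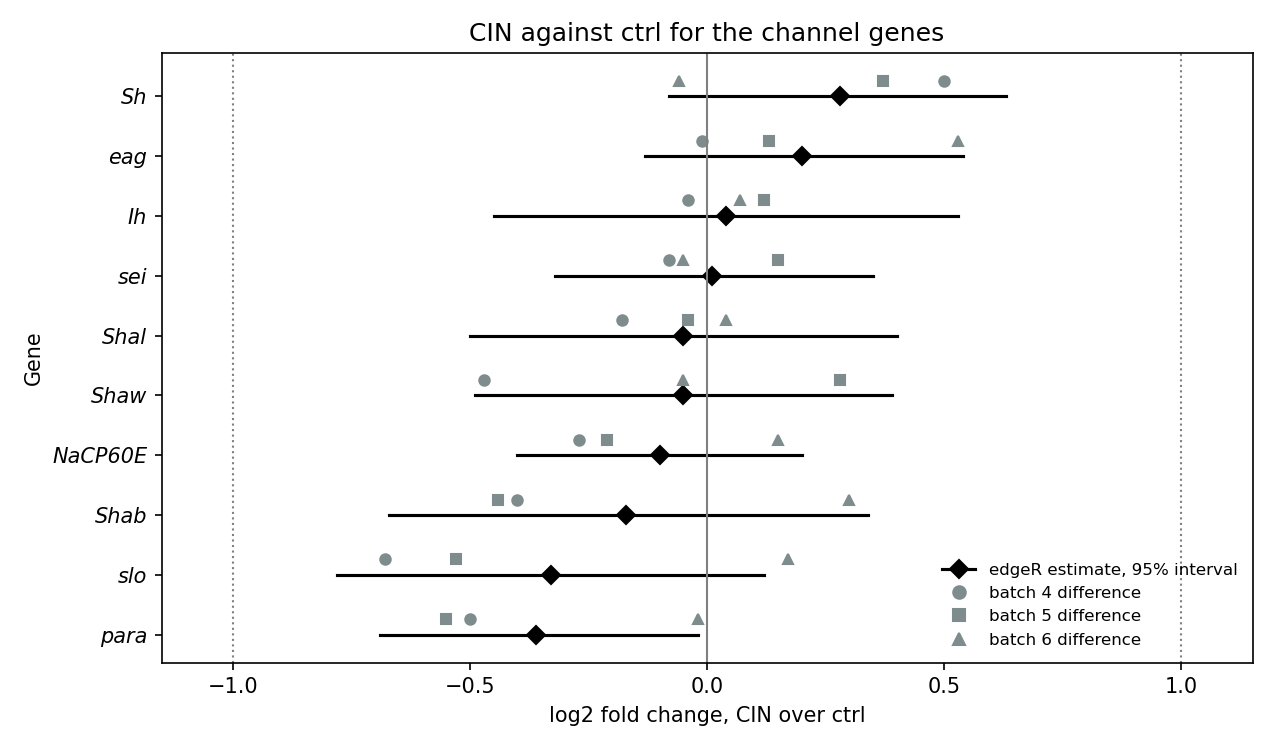
Black diamonds are the log2 fold changes of CIN over ctrl fitted by edgeR, with 95% intervals as lines, and grey symbols are the differences within batches 4, 5 and 6 on the log2 CPM scale. All intervals lie between the dotted lines at -1 and 1, and para, with an estimate of -0.36, is the 1 gene whose 3 batch differences share a sign.

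Of the sodium channel genes, para (FBgn0285944; X:16455027-16533096, minus strand) encodes the main voltage-gated sodium channel of fly neurons, and its temperature-sensitive alleles paralyse flies in the heat. It measured 274, 246 and 307 CPM in CIN 4, 5 and 6, against 388, 359 and 312 CPM in ctrl 4, 5 and 6. All CIN libraries lay below all ctrl libraries, which held for 8.18% of tested genes, although CIN 6 and ctrl 6 were close to each other. The means were 275.6 ± 30.8 CPM in CIN and 353 ± 38.6 CPM in ctrl (SD, n = 3). The log2 fold change was -0.36 ± 0.14 (SE; 95% interval -0.69 to -0.02; edgeR, adjusted p = 0.603; DESeq2, adjusted p = 0.396). Its differences within batches 4, 5 and 6 were -0.50, -0.55 and -0.02 on the log2 CPM scale. Neuroblast markers also summed lower in CIN. They gave 447, 575 and 627.5 CPM in CIN 4, 5 and 6, against 857, 637 and 647 CPM in ctrl 4, 5 and 6. Of the 10 markers, 8 had a negative and 2 a positive log2 fold change. All CIN libraries lay below all ctrl libraries for 1 of them. The most abundant, mira, had means of 156 CPM in CIN and 255 CPM in ctrl. The part of these markers in the para values was not tested.

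NaCP60E (FBgn0085434; 2R:24891614-24921677, plus strand) is related to sodium channels by sequence. It had 68.3, 71.04 and 88.4 CPM in CIN 4, 5 and 6, against 82.3, 82.1 and 79.9 CPM in ctrl 4, 5 and 6. The ctrl values were closer together than for any other of the 10 genes, with a coefficient of variation of 1.58%, and the CIN values, at 14.4%, lay on both sides of them. The log2 fold change was -0.10 ± 0.13 (SE; edgeR, adjusted p = 0.842). Exons of NaCP60E share 173 bp with pain, on the opposite strand, and without strand the reads there cannot be told apart. Per kb, para exceeded NaCP60E in every library, by 3.85, 3.31 and 3.33 times in CIN 4, 5 and 6 and by 4.52, 4.19 and 3.74 times in ctrl 4, 5 and 6.

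Among the potassium channels, Sh (FBgn0003380; X:17924307-18063247, minus strand) encodes the fast, inactivating A-type channel of axons and terminals. It measured 759.8, 779 and 599 CPM in CIN 4, 5 and 6, against 539, 604 and 623 CPM in ctrl 4, 5 and 6. CIN 4 and CIN 5 stood above every ctrl library, while CIN 6 lay among them, so the groups overlapped. The log2 fold change of 0.28 ± 0.15 (SE; 95% interval -0.08 to 0.63) did not pass (edgeR, adjusted p = 0.687). Within batches 4, 5 and 6 the differences were 0.50, 0.37 and -0.06 on the log2 CPM scale. As a share of the 10 genes by CPM per kb, Sh made up 28.9%, 28.6% and 21.4% in CIN 4, 5 and 6, against 19.2%, 22.05% and 22.8% in ctrl 4, 5 and 6. The ratio of Sh to para per kb was 1.98, 2.27 and 1.40 in CIN 4, 5 and 6, against 0.993, 1.20 and 1.43 in ctrl 4, 5 and 6. This ratio, chosen after its values were seen, does not depend on the scaling of libraries, and its groups overlapped through batch 6 alone. Its size does depend on the length chosen. Per kb of the longest transcript, the ctrl means were 48.3 CPM per kb for Sh and 22.65 CPM per kb for para. Muscle also uses Sh, and the 10 muscle markers summed to 521, 412 and 371 CPM in CIN 4, 5 and 6, against 376, 357 and 391 CPM in ctrl 4, 5 and 6. Of these sums, Act87E gave 169 to 208 CPM. Mhc and Mlc2, 2 of the defining muscle genes, were above 0 in all 6 libraries. Mhc had 37.4, 7.68 and 14.6 CPM in CIN 4, 5 and 6, against 17.4, 4.50 and 7.75 CPM in ctrl 4, 5 and 6. Mlc2 had 37.9, 7.68 and 12.4 CPM in CIN 4, 5 and 6, against 23.0, 10.9 and 12.0 CPM in ctrl 4, 5 and 6. In batch 4, TpnC47D and TpnC73F went the other way, with 2.71 and 16.6 CPM in CIN 4, against 4.06 and 22.9 CPM in ctrl 4. Of the 10 muscle markers, 8 had a positive log2 fold change and 2, TpnC47D and TpnC73F, a negative one. The part of muscle in the Sh values was not tested.

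The other Shaker relatives were less abundant per kb and gave no direction that held in every batch. Shab (FBgn0262593; 3L:2895017-2959579, plus strand), a delayed rectifier, had 55.8, 72.9 and 92.2 CPM in CIN 4, 5 and 6, against 73.7, 99.2 and 74.8 CPM in ctrl 4, 5 and 6. Its highest library was 1.78 times its lowest, the widest span of the 10 genes, and its log2 fold change was -0.17 ± 0.21 (SE; edgeR, adjusted p = 0.843). Shal (FBgn0005564; 3L:19566851-19584568, minus strand), the A-type channel of cell bodies and dendrites, had 43.5, 61.3 and 66.2 CPM in CIN 4, 5 and 6, against 49.3, 62.9 and 64.6 CPM in ctrl 4, 5 and 6. The batch 4 library was the lowest of each genotype and the batch 6 library the highest, and the log2 fold change was -0.05 ± 0.19 (SE; edgeR, adjusted p = 0.963). Shaw (FBgn0003386; 2L:3718185-3729145, plus strand), a channel that helps set resting excitability, had 32.01, 50.5 and 47.3 CPM in CIN 4, 5 and 6, against 44.2, 41.5 and 49.05 CPM in ctrl 4, 5 and 6. CIN 4 lay apart below the other 5 libraries, and the log2 fold change was -0.05 ± 0.19 (SE; edgeR, adjusted p = 0.956). Without CIN 4 the estimates of Shal and Shaw turned positive, at 0.11 and 0.12.

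The ether-a-go-go family was represented by eag and sei. The gene eag (FBgn0000535; X:14955477-15009989, plus strand) encodes a slow potassium channel whose mutants, like those of Sh, shake under ether. It had 35.95, 37.9 and 38.6 CPM in CIN 4, 5 and 6, against 36.1, 34.7 and 26.8 CPM in ctrl 4, 5 and 6. The groups overlapped only between CIN 4 and ctrl 4, and ctrl 6 was low beside the other 5 libraries. The log2 fold change was 0.20 ± 0.14 (SE; 95% interval -0.13 to 0.54; edgeR, adjusted p = 0.730), and without ctrl 6 it was 0.08. The gene sei (FBgn0003353; 2R:24047411-24053035, plus strand) encodes the fly ERG channel, and its mutants have seizures in the heat. It had 29.6, 38.8 and 35.9 CPM in CIN 4, 5 and 6, against 31.2, 35.01 and 37.2 CPM in ctrl 4, 5 and 6. The group means were nearly the same, at 34.75 ± 4.68 CPM in CIN and 34.5 ± 3.03 CPM in ctrl (SD, n = 3), with a log2 fold change of 0.01 ± 0.14 (SE; edgeR, adjusted p = 0.990). Of its 3278 bp of exon, sei shares 359 bp with gammaSnap1 and 119 bp with ppk29, both on the opposite strand.

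The gene slo (FBgn0003429; 3R:24662491-24711595, plus strand) encodes the large-conductance BK channel, which opens on calcium as well as voltage. It had 57.99, 52.6 and 80.4 CPM in CIN 4, 5 and 6, against 92.8, 75.9 and 71.3 CPM in ctrl 4, 5 and 6. CIN 4 and CIN 5 lay below every ctrl library, while CIN 6 lay between ctrl 5 and ctrl 4. The log2 fold change was -0.33 ± 0.19 (SE; 95% interval -0.78 to 0.12; edgeR, adjusted p = 0.703), and its differences within batches 4, 5 and 6 were -0.68, -0.53 and 0.17 on the log2 CPM scale. In batches 4 and 5, then, slo and para were lower in CIN and Sh was higher, and in batch 6 all 3 differences were within 0.17 of 0. The neuron marker sum was lower in CIN 4 than in ctrl 4 and close to equal in batch 5, and its part in these values was not tested. The most abundant marker, fne, gave 1053, 1111 and 985 CPM of that sum in CIN 4, 5 and 6. It gave 1401, 1404 and 1707 CPM in ctrl 4, 5 and 6, so fne was lower in CIN in every batch. Of the 15 markers, 8 had a positive and 7 a negative log2 fold change.

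Ih (FBgn0263397; 2R:14276130-14300095, plus strand) encodes the HCN channel, which opens on hyperpolarization and passes both sodium and potassium. It had 277, 197 and 226 CPM in CIN 4, 5 and 6, against 285, 181 and 215 CPM in ctrl 4, 5 and 6. The libraries went together by batch rather than by genotype, with batch 4 high, batch 5 low and batch 6 between them in both groups. The batch means of Ih spanned 0.57 on the log2 CPM scale, the widest of the 10 genes, while the genotypes differed by 0.05 on that scale, with a fitted log2 fold change of 0.04 ± 0.21 (SE; edgeR, adjusted p = 0.971). The same order of batches in both genotypes was found for 2 of the 10 genes, Ih and Shal, and for 23.6% of tested genes. The batch means spanned more than the genotype difference for 6 of the 10, which were Shab, Shal, Shaw, sei, Ih and NaCP60E. A span over batch means and a difference between genotypes are unlike measures. The share over all tested genes was not computed, so this count does not weigh batch against genotype.

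**Figure D3:**
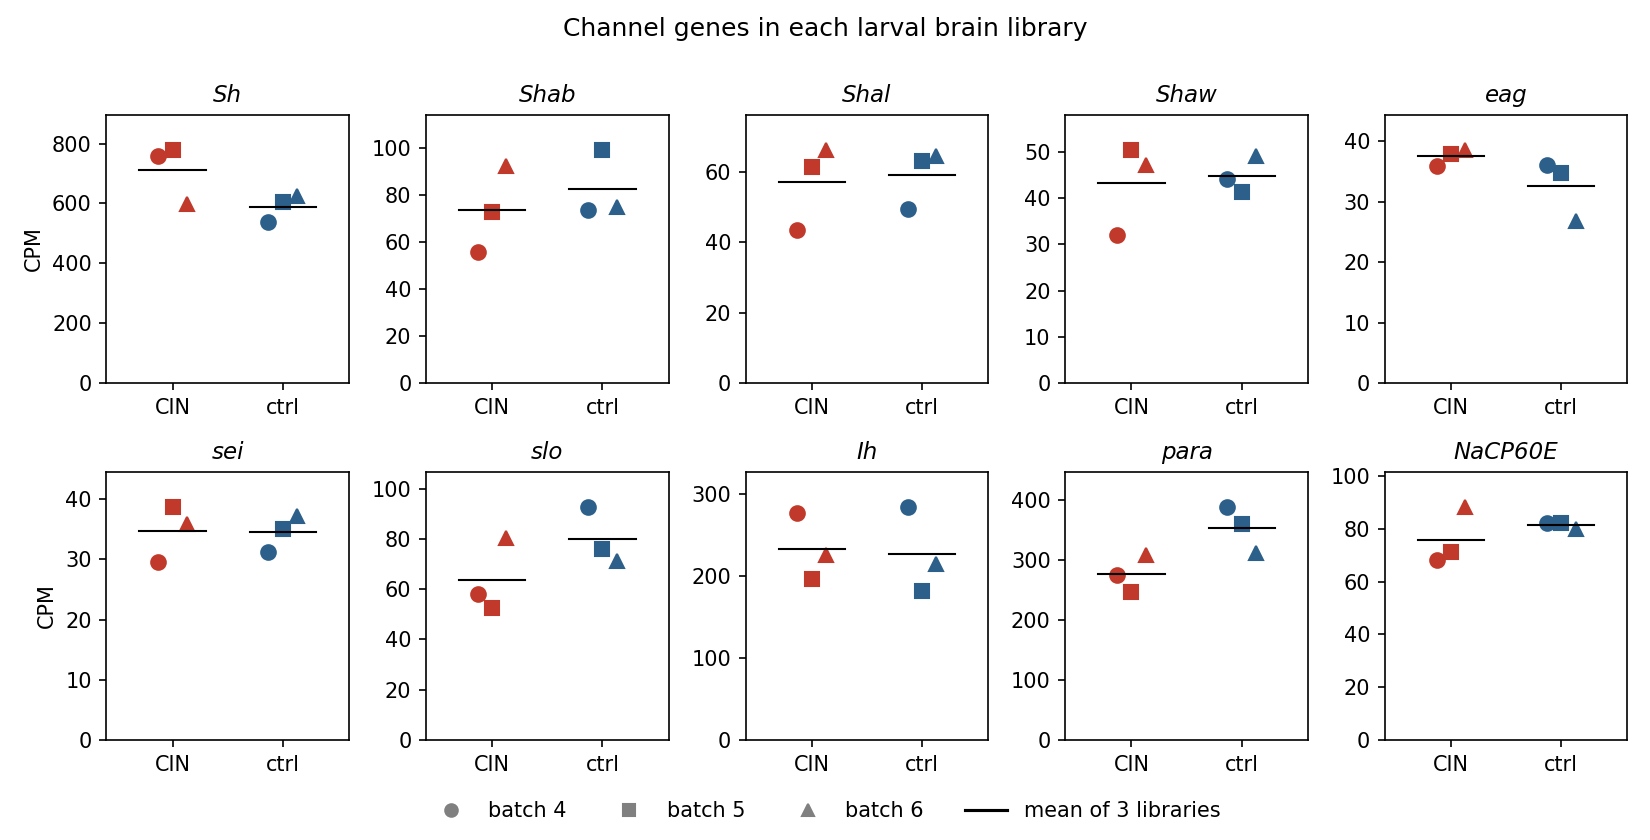
Each panel is 1 channel gene, with CPM on an axis from 0, CIN left of ctrl, symbols for batches 4, 5 and 6 and a bar at the mean of 3 libraries. The groups are apart in para alone, where the highest CIN library (307 CPM) lies just under the lowest ctrl library (312 CPM), and Ih shows the same batch order in both groups.

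Single libraries shaped the spread. CIN 4 was the lowest of the 6 libraries for 5 of the 10 genes (Shab, Shal, Shaw, sei and NaCP60E), which held for 21.9% of tested genes. CIN 4 also had the lowest neuron marker sum, 3690 CPM, and the highest sums of glia, ring gland and hemocyte markers, 2215, 3699 and 1579 CPM. The part of these tissues in the low values was not tested. Of the glia sum in CIN 4, Gs2 gave 807 CPM and Mdr65 450 CPM. Gs2, Mdr65 and moody were highest in CIN 4, while Eaat1 was lowest there, at 157 CPM. The other glia markers were neither highest nor lowest in CIN 4. Set against the neuron marker sum of its own library, Shaw came to 0.867%, 1.06% and 0.947% in CIN 4, 5 and 6, against 1.02%, 0.885% and 0.948% in ctrl 4, 5 and 6. Shal came to 1.18%, 1.29% and 1.33% in CIN 4, 5 and 6, against 1.13%, 1.34% and 1.25% in ctrl 4, 5 and 6. On this scale CIN 4 stayed the lowest library for Shaw but not for the other 4 of these genes, Shab, Shal, sei and NaCP60E. For para the groups overlapped, with 7.43%, 5.17% and 6.15% in CIN 4, 5 and 6, against 8.93%, 7.65% and 6.03% in ctrl 4, 5 and 6. The neuron marker sum includes fne, at 985 to 1111 CPM in CIN and 1401 to 1707 CPM in ctrl. Percentages of a sum without fne were not computed. Summed over the 10 genes, the channels gave 1634, 1607 and 1580 CPM in CIN 4, 5 and 6, against 1621, 1575 and 1554 CPM in ctrl 4, 5 and 6. In this sum, which is not corrected for length, Sh took 33.2% to 48.5%, and per kb of exon union it took 19.2% to 28.9%.

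The channels work with auxiliary subunits and binding proteins, and 12 of these were tested. Of them edgeR called 0 and DESeq2 0, with 1 at an unadjusted p under 0.05 by edgeR, where 7.89% of tested genes were held. Their median log2 fold change was -0.03, with 5 positive and 7 negative. The 1 was Teh4, a member of the tipE family of sodium channel subunits, with 23.7, 25.5 and 28.3 CPM in CIN 4, 5 and 6, against 35.6, 33.5 and 35.96 CPM in ctrl 4, 5 and 6. All CIN libraries were below all ctrl libraries, which held for 8.18% of tested genes. The batch differences of Teh4 were -0.59, -0.39 and -0.35 on the log2 CPM scale. Its fitted log2 fold change was -0.44 ± 0.12 (SE; edgeR, adjusted p = 0.495; DESeq2, adjusted p = 0.140). The founding member tipE, which raises para currents, had 0.07 ± 0.27, and Teh1, Teh2 and Teh3 had -0.01 ± 0.18, 0.01 ± 0.19 and 0.22 ± 0.34 as log2 fold changes (SE). Hk, the beta subunit of Sh channels, had 74.5, 82.7 and 102 CPM in CIN 4, 5 and 6, against 118, 99.96 and 102 CPM in ctrl 4, 5 and 6. Its log2 fold change was -0.31 ± 0.15 (SE; edgeR, adjusted p = 0.666), beside 0.28 ± 0.15 for Sh itself, and that difference between the genes was not tested. The Sh modulator qvr, also called sleepless, had 0.05 ± 0.15, and the slo-binding proteins Slob and Slip1 had -0.15 ± 0.22 and -0.16 ± 0.14 as log2 fold changes (SE). SKIP, a binding partner of Shal, had 0.42 ± 0.22 (SE; edgeR, adjusted p = 0.678), with CIN 5, at 204 CPM, far above the range of 106 to 138 CPM of the other 5 libraries.

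Of 12 tested potassium channel genes outside the 10, edgeR called 0 and DESeq2 called 1, Irk2, with 1 at an unadjusted p under 0.05 by edgeR. Their log2 fold changes were positive for 8 and negative for 4, with a median of 0.16. Irk2 encodes an inwardly rectifying channel, a class known in flies from the Malpighian tubule, and is not gated by a voltage sensor. It had 17.3, 13.6 and 13.7 CPM in CIN 4, 5 and 6, against 9.81, 6.98 and 6.43 CPM in ctrl 4, 5 and 6. All CIN libraries lay above all ctrl libraries, which held for 7.10% of tested genes, and the batch differences were 0.82, 0.97 and 1.09 on the log2 CPM scale. The log2 fold change was 0.94 ± 0.23 (SE; 95% interval 0.40 to 1.49; edgeR, adjusted p = 0.441; DESeq2, adjusted p = 0.0277). Its relatives Irk1 and Irk3 were high in a single library, with 10.6 and 131 CPM in CIN 4, against at most 1.73 and 21.9 CPM in the others. Among the others, the calcium-opened SK had -0.13 ± 0.13 as its log2 fold change (SE), and the sodium-activated SLO2 had 0.17 ± 0.19. Elk and Shawl, relatives of eag and Shaw, had 0.16 ± 0.39 and 0.17 ± 0.27 as log2 fold changes (SE). KCNQ had 0.18 ± 0.24 and the acid-sensitive leak channel Task6 0.05 ± 0.19. The channel gene galene had at most 0.515 CPM and did not pass the filter.

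Other lists around excitability held no call by edgeR. The 9 tested calcium channel and sodium leak channel genes had a median log2 fold change of 0.06, with none at an unadjusted p under 0.05 and none called by DESeq2. The most abundant were cac, the calcium channel of synapses, with 0.06 ± 0.14, and Mid1, also called Nlf-1, a protein of the leak channel complex, with 0.28 ± 0.19 (SE). The 4 subunits of the sodium pump had a median of 0.00, from -0.20 for nrv3 to 0.27 for nrv1, with Atpalpha at 0.03 ± 0.12 (SE). Regulators known to act on channel RNAs had a median of 0.09 over 5 tested genes, with the translational repressor pum at 0.05 ± 0.17 and brat at 0.09 ± 0.25 (SE). None of the pump genes or regulators was at an unadjusted p under 0.05 or called by DESeq2. The neuron markers had a median of 0.01, with cpx at -0.03 ± 0.19 (SE), and DESeq2 called 1 of the 15, fne, an RNA-binding protein gene lower in CIN, at -0.52 ± 0.13 (SE; DESeq2, adjusted p = 0.0188). Medians were -0.38 for 10 neuroblast markers, 0.18 for 9 glia markers and 0.32 for 10 muscle markers, with none of these genes called by edgeR or DESeq2 and 2 of them, both neuroblast markers lower in CIN, at an unadjusted p under 0.05. The most abundant of them were mira and pnt at -0.71 ± 0.28 and 0.09 ± 0.17, Gs2 and Mdr65 at 0.21 ± 0.33 and -0.09 ± 0.39, and Act87E and Act57B at 0.03 ± 0.12 and 0.25 ± 0.27 (SE). Ring gland and hemocyte markers had medians of 0.01 and -0.02. Fat body markers had a median of -1.90 over 5 genes, with 1, Fbp2, at an unadjusted p under 0.05, and summed to 82.4, 23.1 and 14.9 CPM in CIN 4, 5 and 6, against 416, 47.3 and 24.8 CPM in ctrl 4, 5 and 6.

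**Figure D4:**
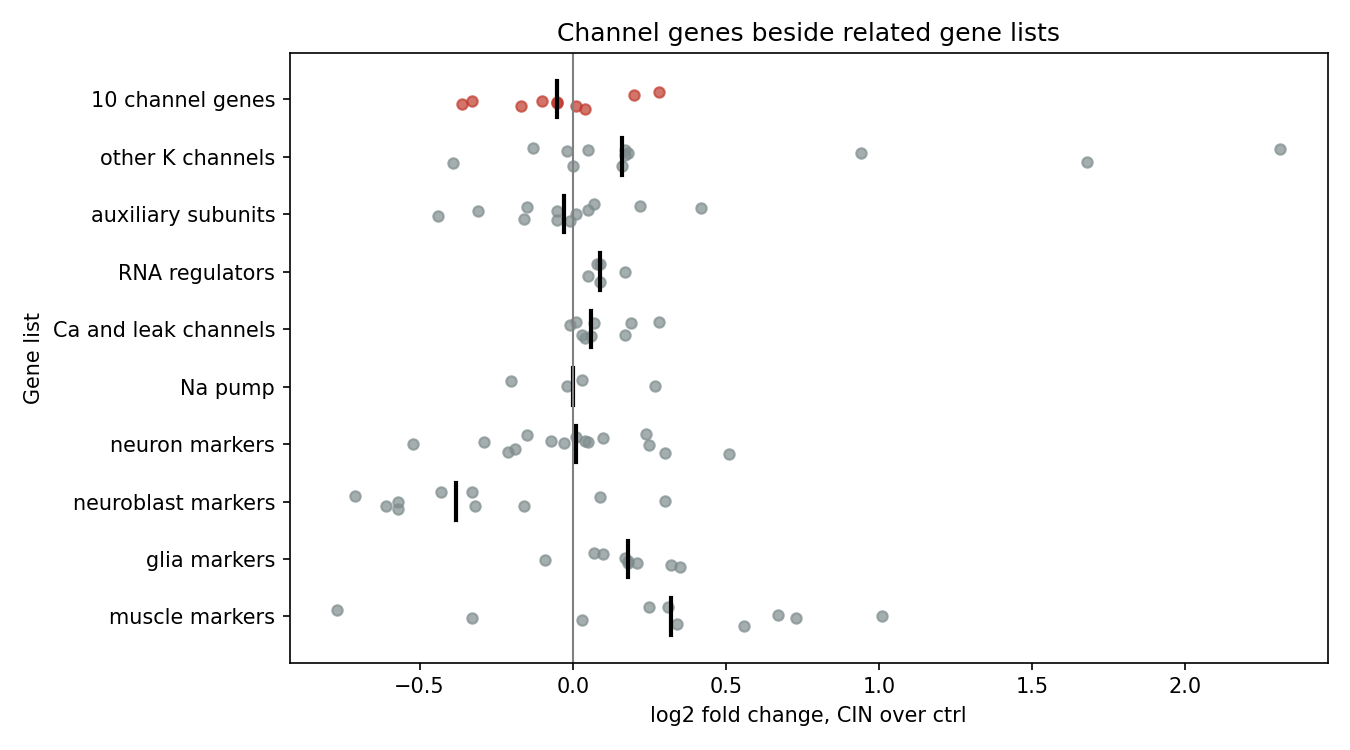
Each point is the log2 fold change of 1 tested gene, CIN over ctrl, fitted by edgeR, for the 10 channel genes in red and for related lists in grey, with black bars at list medians. The channel genes lie between -0.36 and 0.28 with a median of -0.05, and the 3 points beyond 0.5 in the row of other potassium channels are Irk2 (0.94), Irk3 (1.68) and Irk1 (2.31).

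The gene models set a limit on what these counts can show. Sh spans 138941 bp with 17 annotated transcripts in 27 blocks of exon, slo has 23 transcripts, and para has 60 transcripts in 34 blocks over 78070 bp. Counts were given per gene, so a shift between splice forms, or in RNA editing, with no change in the total was not measured here.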

How the data were processed

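Whole-number counts per gene were deposited by the authors as 1 table of 14150 genes and 6 libraries, not normalized. Libraries were made with a poly(A) and NEBNext Ultra II kit that does not mark strand, with 13 cycles of amplification, per the labels' protocols. Trim Galore, STAR 2.7.10a, featureCounts and dm6 are named in the submitters' processing notes, without strand setting, annotation release or treatment of multi-mapping reads. Library columns were tied to samples by the library names in the labels.

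Symbols were matched by FlyBase identifier (14074 of 14150). Positions, 1-based, and lengths came from an Ensembl annotation of BDGP6, the assembly of dm6. CIN was compared with ctrl by edgeR 4.0.16 in R 4.3.3, after filterByExpr (10074 genes) and TMM, with the two-sided quasi-likelihood F test on genotype and Benjamini-Hochberg adjustment over all tested genes at 0.05. CPM used TMM-scaled totals of the tested genes. The SE was the size of the log2 fold change over the square root of F, and 95% intervals used the t distribution of that test. The script was tested on simulated data. With 3 libraries a group, a permutation test could not go below 0.1, so none was run.

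The members, lists and tests were chosen with earlier results of these data known, and no list was tested as a set. All 10 members, Bub3 and lncRNA:roX2 are named; the rule allowed any tested auxiliary subunit, other potassium channel or gene that overlaps a member to be named, and not all of them are. From each other list up to 3 called genes are named, or else the 2 most abundant, except for ring gland, hemocyte and fat body markers. Other genes were chosen after their values were seen. Ca-beta and nvd were not analysed here. The batch label pairs the libraries across genotypes; across genes, each pair's deviations from the 2 group means correlated at 0.0382, -0.0623 and 0.175 for batches 4, 5 and 6. Other settings were RLE factors, no scaling factors, no filter, at least 1 CPM in 3 libraries, limma-voom (limma 3.58.1), DESeq2 1.42.0, batch as a replicate block, and each library left out; leaving out both ctrl 4 and CIN 5 was added after seeing the data. The spread behind each p is that among pools of 3 brains taken on different days.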

Additional observations from a re-analysis of the deposited data

How the results depend on the processing

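No channel gene was called in any of the 14 other settings tried, where the lowest adjusted p was 0.396 (para, DESeq2). Over all genes, 10 were called, against 107 by DESeq2, 0 with batch as a replicate block (874 at an unadjusted p under 0.05) and 1 to 3 with 1 library left out. With the replicate block no channel gene was called either, and none was at an unadjusted p under 0.05. Genes of the related lists were called by DESeq2 alone, 2 of them, Irk2 and fne. Of 140 refitted log2 fold changes of channel genes, 129 kept their direction and 11 turned. With 1 library left out, Shal ran from -0.18 to 0.11, Shaw from -0.18 to 0.12, sei from -0.08 to 0.11 and Ih from -0.11 to 0.23, and without both ctrl 4 and CIN 5 sei was at -0.14; the cause was not tested. With 1 library left out, para ran from -0.45 to -0.28, Sh from 0.20 to 0.37, slo from -0.54 to -0.21 and eag from 0.08 (without ctrl 6) to 0.28. Without both ctrl 4 and CIN 5, para was at -0.21, Sh at 0.14 and slo at -0.09, each nearer to no difference than in those ranges. In that setting Ih was at 0.34, Shal at -0.22 and Shaw at -0.19, also outside their ranges. Shab ran from -0.37 without CIN 6 to -0.001 without CIN 4, and NaCP60E from -0.24 without CIN 6 to -0.03 without CIN 4. Per length, 4 of 10 genes kept their place with the longest transcript as length, and 6 of 10 in the CIN libraries. Of the 10 genes, para alone was at an unadjusted p under 0.05. That was lost with the replicate block, with no scaling factors and without both ctrl 4 and CIN 5. It was also lost without ctrl 4, ctrl 5, CIN 4 or CIN 5 alone, while slo was added without CIN 6.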

Other observations

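Some genes lie inside the channel loci or meet their ends. Cnx14D, a calnexin gene of the endoplasmic reticulum at X:16522967-16525415, lies between exons of para on the same strand and shares no exon with it. It had 15.2, 12.5 and 11.7 CPM in CIN 4, 5 and 6, against 9.33, 7.42 and 9.58 CPM in ctrl 4, 5 and 6. All CIN libraries lay above all ctrl libraries, where those of para lay below, with a log2 fold change of 0.58 ± 0.20 (SE; 95% interval 0.11 to 1.05; edgeR, adjusted p = 0.603; DESeq2, adjusted p = 0.295). Left out 1 at a time, the libraries gave 0.46 to 0.65 for Cnx14D. The gene pain, a TRP channel gene that meets the end of NaCP60E on the opposite strand, had 56.2, 48.9 and 47.4 CPM in CIN 4, 5 and 6, against 46.3, 39.7 and 42.0 CPM in ctrl 4, 5 and 6. Its groups did not overlap, and its log2 fold change was 0.25 ± 0.12 (SE; edgeR, adjusted p = 0.666). Either way, 15.3% of all tested genes had groups that did not overlap. RpL41, a ribosomal protein gene inside NaCP60E on the opposite strand, stood at 3852 CPM in ctrl 5, against 1462 to 2005 CPM in the other 5 libraries, while NaCP60E in ctrl 5 was within 3 CPM of both other ctrl libraries. The gene CG6867 lies inside Sh on the opposite strand and shares no exon with it. Like Sh, it was highest in CIN 5, at 38.9 CPM, and lowest in ctrl 4, at 21.3 CPM. Its batch differences were 0.27, 0.23 and -0.17 on the log2 CPM scale, beside 0.50, 0.37 and -0.06 for Sh. The log2 fold change of CG6867 was 0.11 ± 0.23 (SE; edgeR, adjusted p = 0.922). CG12672, inside Sh on the same strand, was lowest in CIN 5, at 1.03 CPM, and highest in CIN 4, at 2.43 CPM. The batch differences of CG12672 were 0.39, -0.19 and 0.24. A link between Sh and the genes inside it was not tested.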
